A study of Bos taurus with 147 samples.

Results

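The genes described here are 10 core components of the mammalian circadian clock, ARNTL, CLOCK, PER1, PER2, PER3, CRY1, CRY2, NR1D1, NR1D2 and DBP, chosen by name. The array table held 10986 transcripts, and 7 of the 10 genes had 1 transcript of their own: ARNTL, CLOCK, PER1, PER3, CRY1, NR1D2 and DBP. NR1D1 was represented only by a transcript that the platform assigns to both NR1D1 and THRA, genes that overlap on opposite strands, so its values are given apart and belong to neither gene alone. PER2 and CRY2 had no transcript among those analysed here.

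RNA of the adrenal cortex, cut free of the medulla, was measured, 1 array per cow, in the second generation of a cross between Charolais sires and German Holstein dams, slaughtered early in lactation at 1127 to 1774 days of age. The labels gave a class of year and season to 145 cows, of which 36 were slaughtered in spring, 45 in summer, 38 in autumn and 26 in winter. The 25 classes held 2 to 13 cows each and ran over 8 years, from the class labelled Summer2004 to that labelled autumn2011, with winters only from winter2007/2008 to winter2010/2011. All were females of a few half-sib and full-sib families, and neither the months of each season nor the hour of slaughter are given in the sources used here.

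Below, the years before 2008 are called the first to the fourth year, and a winter is counted with the year in which it began. No group was treated, so the comparisons are between seasons, years and single cows.

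The circadian clock is a loop of transcription factors that runs in nearly every cell. The proteins of ARNTL and CLOCK bind together and switch on the PER and CRY genes, whose proteins repress that pair, while the pair also switches on NR1D1 and NR1D2, repressors of ARNTL, and the output factor DBP. In mammalian tissues ARNTL therefore peaks at a different hour from DBP, PER and NR1D transcripts, and in rodents the adrenal clock is known for gating the response of glucocorticoid secretion to ACTH.

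Signals are on a log2 scale, on which 1 unit is a doubling. Cow-to-cow spread was wide in PER1, whose 145 values ran from 6.77 to 9.89, an 8.68-fold range, and in CLOCK, which ran from 6.76 to 9.36, a 6.06-fold range. The spread was narrower in DBP, from 9.03 to 10.79, in ARNTL, from 6.64 to 8.31, and in NR1D2, from 8.45 to 9.77. It was narrowest in CRY1, from 5.15 to 6.45, and PER3, from 7.19 to 8.38, a 2.28-fold range. CRY1 also had the lowest mean of the 7 genes, 5.71, at percentile 9.33 of all transcripts. With classes and age removed, the SD of CLOCK exceeded that of 95.5% of transcripts with a similar mean and that of PER1 exceeded 95.1%, against 87.3% for DBP, 64.6% for ARNTL, 59.9% for NR1D2, 38.7% for PER3 and 20.5% for CRY1. Array medians lay between 7.89 and 8.08, and pairs of arrays correlated at 0.895 to 0.991. The 9 measured adrenocortical markers, such as the steroid enzymes, averaged 12.39 to 12.42 in the 4 seasons.

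A component shared across the array accompanied several of these genes. The first principal component of the values left after class and age carried 28.9% of that variance and rose with RNA-processing genes such as CLK1 (r = 0.887). Each cow's score on it, computed from all transcripts including the clock genes, correlated with CLOCK at r = 0.919, with CRY1 at 0.584, with ARNTL at 0.27 and with NR1D2 at 0.24. It ran against DBP at -0.518, PER1 at -0.277 and PER3 at -0.0656. The mean score was 0.03 SD in spring, -0.04 in summer, -0.18 in autumn and 0.29 in winter, with SDs of 0.90 to 1.09 within seasons. CLOCK thus varied closely with this score and PER3 hardly at all, and results are given with and without the score where it changed them.

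The seasons left no called difference in any clock gene. A moderated F-test over seasons in limma, with year and age as terms and the class as a random block, called 0 of the 7 genes after Benjamini-Hochberg adjustment, and 0% of all 10986 transcripts. At an unadjusted p under 0.05 it held 2 of the 7, ARNTL and DBP, against 12.4% of all transcripts. Summer minus winter also gave 0 of 7 genes and 0% of all transcripts after adjustment, and 0 of 7 against 11.8% unadjusted. Spring minus autumn again gave 0 of 7 and 0%, and 2 of 7 against 9.44% unadjusted, with ARNTL higher and DBP lower in spring.

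ARNTL, the partner that CLOCK needs to bind DNA, had its highest seasonal mean in spring. In the 36 spring cows its signals ran from 7.37 through a median of 7.84 to 8.27, and in the 38 autumn cows from 6.64 through 7.74 to 8.24. Summer cows lay between 7.16 and 8.31 with a median of 7.75, and winter cows between 7.08 and 8.29 with a median of 7.74. The 4 seasons overlapped over nearly the whole range, and the autumn minimum of 6.64 was a single cow, the lowest of all. Spring minus autumn came to 0.18 (SE 0.06, 95% interval 0.06 to 0.29, limma p = 0.00328, adjusted p = 0.326), and summer minus winter to 0.06 (95% interval -0.07 to 0.18, adjusted p = 0.697).

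DBP, a PAR bZIP factor that carries the clock's rhythm to metabolic genes, had its means in the reverse order of ARNTL's in spring and autumn. Its signals ran from 9.18 through a median of 9.92 to 10.43 in spring and from 9.25 through 10.02 to 10.79 in autumn. Summer values lay between 9.10 and 10.72 with a median of 9.98, and winter values between 9.03 and 10.33 with a median of 9.91. Autumn was the highest season by median, again with overlap of all seasons. Spring minus autumn was -0.21 (SE 0.07, 95% interval -0.36 to -0.07, limma p = 0.00403, adjusted p = 0.326), and summer minus winter was 0.04 (95% interval -0.11 to 0.19, adjusted p = 0.83).

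Although no difference between years was called, the estimate of spring minus autumn was not the same in each year. For ARNTL it was 0.22 in the second year, -0.07 in the fourth, 0.17 in 2008, 0.12 in 2009 and 0.31 in 2011, with SEs of 0.12 to 0.24. For DBP it was 0.15, -0.37, -0.33, 0.29 and -0.22 in the same years, with SEs of 0.14 to 0.29. The value was thus above 0 for ARNTL in 4 of 5 years and below 0 for DBP in 3 of 5, and a limma F-test of the differences between years called 0 of 7 genes (adjusted p = 1 for both) and 0% of all transcripts, as did the same test of summer minus winter. The DBP value moved to -0.10 without the cows of 2008 and to -0.29 without those of 2009. The estimated correlation within classes was slightly below 0 (-0.0417), which narrows the SEs of the pooled differences above but not those of single years. With cows as independent the adjusted p of both genes for the pooled difference was 0.998.

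**Figure D1:**
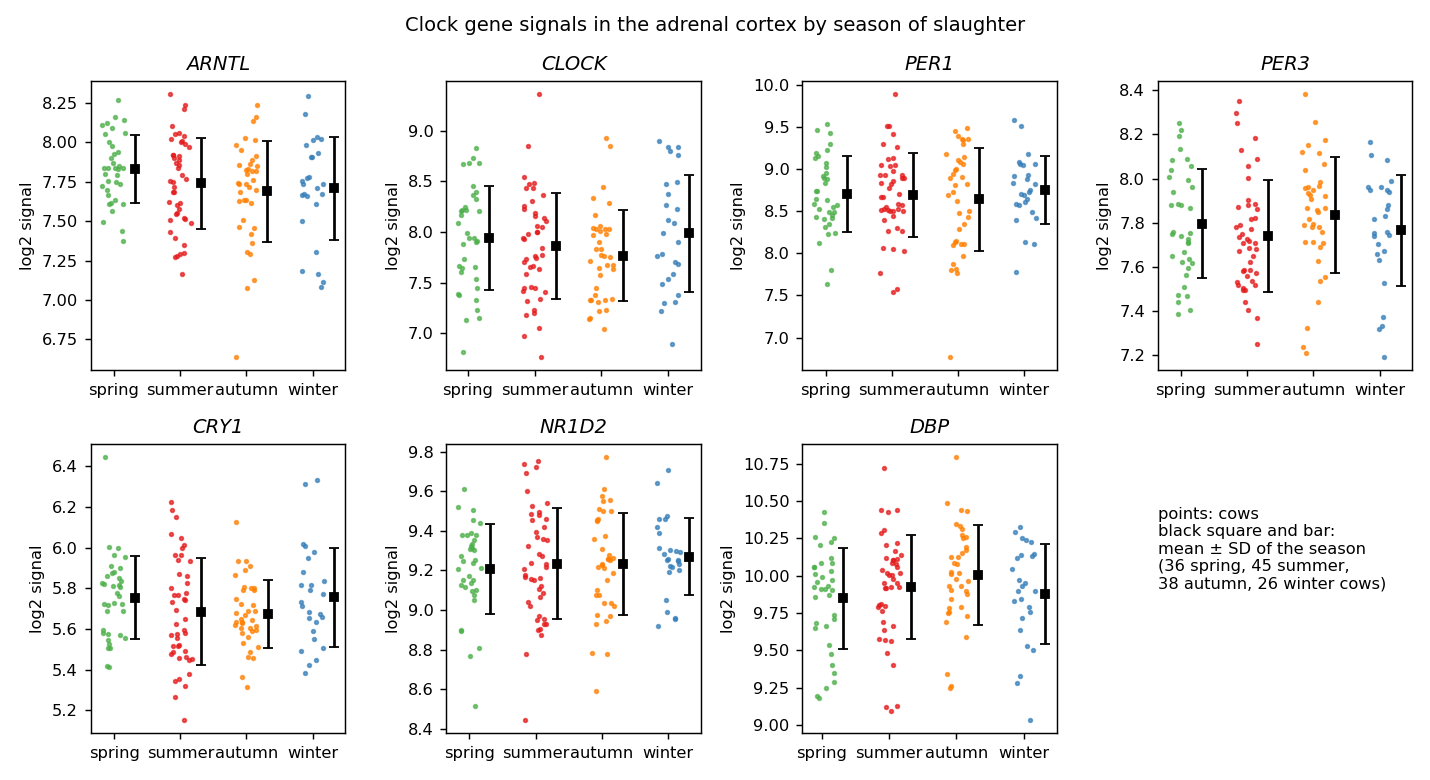
Each panel plots the log2 signal of 1 clock gene in every cow (points) by season of slaughter, with the seasonal mean and SD as a black square and bar, each panel on its own vertical scale. The seasons overlap in all 7 genes, and the spring mean of ARNTL (7.83) and the autumn mean of DBP (10.00) are the highest of their panels.

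CLOCK, which pairs with ARNTL, had seasonal medians of 7.94 in spring, 7.84 in summer, 7.76 in autumn and 7.95 in winter. Its summer minus winter difference was -0.14 (95% interval -0.36 to 0.09, limma adjusted p = 0.588). This order is also that of the array-wide score by mean, lowest in autumn and highest in winter.

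The repressors showed no seasonal call either. PER1, which is also induced acutely by hormones, had medians of 8.64 in spring, 8.67 in summer, 8.77 in autumn and 8.74 in winter, within an overall range that reached its lowest point of 6.77 in 1 autumn cow. PER3 had medians of 7.75, 7.71, 7.86 and 7.79 in the same order, and CRY1 of 5.77, 5.65, 5.65 and 5.72. None of these orders came with a called difference, and the limma adjusted p of the seasonal F-test was 0.872 for PER1, 0.538 for PER3 and 0.462 for CRY1. The 95% intervals of summer minus winter were -0.21 to 0.23 for PER1, -0.14 to 0.07 for PER3 and -0.18 to 0.02 for CRY1.

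NR1D2, a heme-binding repressor of ARNTL, had the closest seasonal medians of the 7 genes, 9.24 in spring, 9.22 in summer, 9.24 in autumn and 9.26 in winter. Its summer minus winter difference was -0.05 (95% interval -0.16 to 0.06, limma adjusted p = 0.69). The shared NR1D1/THRA transcript had medians of 7.93, 7.93, 8.07 and 7.81, and its spring minus autumn difference was -0.22 (SE 0.12, adjusted p = 0.562).

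Further genes of the clock and of processes that follow season or temperature held no called seasonal difference after adjustment. None of the genes measured in 7 lists passed for any season difference, with unadjusted p under 0.05 in 5 of 7 other clock factors, 3 of 23 clock kinases, phosphatases and ligases, 3 of 14 clock outputs and 7 of 22 heat shock and cold-responsive genes. It was so in 2 of 14 glucocorticoid receptor and target genes, 1 of 21 immediate early genes and 2 of 19 genes of ACTH reception and steroid synthesis, against 12.4% of all transcripts. Median differences of summer minus winter lay between -0.04 and 0.08 in these lists, beside -0.01 over all transcripts.

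The smallest p-values among them fell on a few regulators. RORA, an activator of ARNTL that competes with NR1D proteins, had a spring minus autumn difference of 0.15 (SE 0.06, seasonal p = 0.0123, limma adjusted p = 0.349). BHLHE41, a repressor of the ARNTL and CLOCK pair, had -0.21 (SE 0.08, p = 0.0125, adjusted p = 0.349) and HLF, a relative of DBP, -0.13 (SE 0.04, p = 0.0292, adjusted p = 0.389). SFPQ, an RNA-binding protein found with PER proteins, had 0.20 (SE 0.06, p = 0.00443, adjusted p = 0.346). The chaperone HSPH1 had 0.34 (SE 0.12, adjusted p = 0.351), and MC2R, the ACTH receptor, had a summer minus winter difference of -0.17 (SE 0.05, p = 0.00129, adjusted p = 0.308). None of these reached the threshold, nor did the 5 named transcripts with the largest seasonal F of all, ERP27, GID8, DTD1, ADO and ARSA, whose adjusted p-values were 0.298 to 0.308.

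Markers of chromaffin cells, which form the adrenal medulla beneath the cortex, were present in every season. The 13 measured chromaffin markers averaged 9.21 in spring, 9.48 in summer, 9.17 in autumn and 9.01 in winter, ranging from 7.19 to 11.12 over cows, and their median summer minus winter difference was 0.43, with 8 of 13 at an unadjusted p under 0.05 and 0 past adjustment. Within classes, ARNTL was negatively associated with 4 of the 13, with r from -0.25 to -0.22, or 30.8% of them beside 33.9% of all transcripts, and DBP with 2 of 13, beside 65%. CLOCK was associated positively with 4 of 13, beside 81.6%, and CRY1 positively with 1, beside 71%. PER1, PER3 and NR1D2 were associated with 0 of 13, beside 41.1%, 9.8% and 24.3%. With the array-wide score as a covariate, ARNTL was associated with 4 of 13, all negatively, beside 5.48% of all transcripts. CLOCK was then associated with 5 of 13, all negatively, beside 24.1%, and CRY1, DBP, PER1, PER3 and NR1D2 with 0. Tyrosine hydroxylase and dopamine beta-hydroxylase, defining markers, had mean signals of 10.09 and 10.19, and the part of medullary cells in the clock values was not tested. Fewer cells of a type and less RNA per cell cannot be told apart in such bulk samples.

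Over the years, 3 of the 7 genes fell and 0 rose, against 19.2% of all transcripts lower and 25.7% higher, 44.9% in all. PER3 dropped most steadily, by 0.06 log2 units a year (SE 0.01, limma adjusted p = 6.69e-07). ARNTL fell by 0.04 a year (SE 0.01, adjusted p = 0.00423) and CLOCK by 0.07 a year (SE 0.02, adjusted p = 0.00736). PER1 had a slope of 0.04 (adjusted p = 0.123), NR1D2 of -0.02 (adjusted p = 0.0905), CRY1 of -0.01 (adjusted p = 0.244), DBP of 0.00 (adjusted p = 0.843), and the NR1D1/THRA transcript of -0.06 (adjusted p = 0.0526).

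The medians of PER3, a PER gene whose loss has only mild effects on rhythms in mice, were 8.12 in the 7 cows of the first year, 8.01 in 11 of the second, 8.00 in 6 of the third and 7.83 in 22 of the fourth. They continued at 7.78 in 39 cows of 2008, 7.74 in 24 of 2009, 7.70 in 21 of 2010 and 7.65 in 15 of 2011. Each yearly median lay below the one before, while single cows of the first year and of 2011 overlapped, with values from 7.67 to 8.38 and from 7.37 to 7.96. The slope passed the threshold without any one year, with class means as the unit and with the array-wide score as a covariate, and was -0.04 (adjusted p = 0.0217) among cows from the fourth year on.

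ARNTL medians were 7.92 in the first year, 7.87 in the second, 7.79 in the third, 7.74 in the fourth, 7.76 in 2008, 7.79 in 2009, 7.61 in 2010 and 7.61 in 2011. The lower values thus came in the last pair of years, and without 2011 the slope was -0.03 with an adjusted p of 0.0735. The CLOCK slope was lost without the second year (adjusted p = 0.0602), from the fourth year on (adjusted p = 0.183) and with the array-wide score as a covariate, when it was -0.01 (adjusted p = 0.239). Of the 12 RNA-processing genes that follow this score, 10 fell over the years and 0 rose. Without the cows of 2010, PER1 passed as a riser, at 0.06 a year (adjusted p = 0.0448).

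An F-test over all 25 classes called 0 of the 7 genes, against 11.6% of transcripts, with PER3 nearest to the threshold (limma F = 2.03, adjusted p = 0.0561). PER3 passed it without the age term (adjusted p = 0.0381) and with the array-wide score (adjusted p = 0.0294). Age at slaughter was associated with 0 of 7 genes and 0% of all transcripts, or 0 of 7 and 8.47% at an unadjusted p under 0.05.

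**Figure D2:**
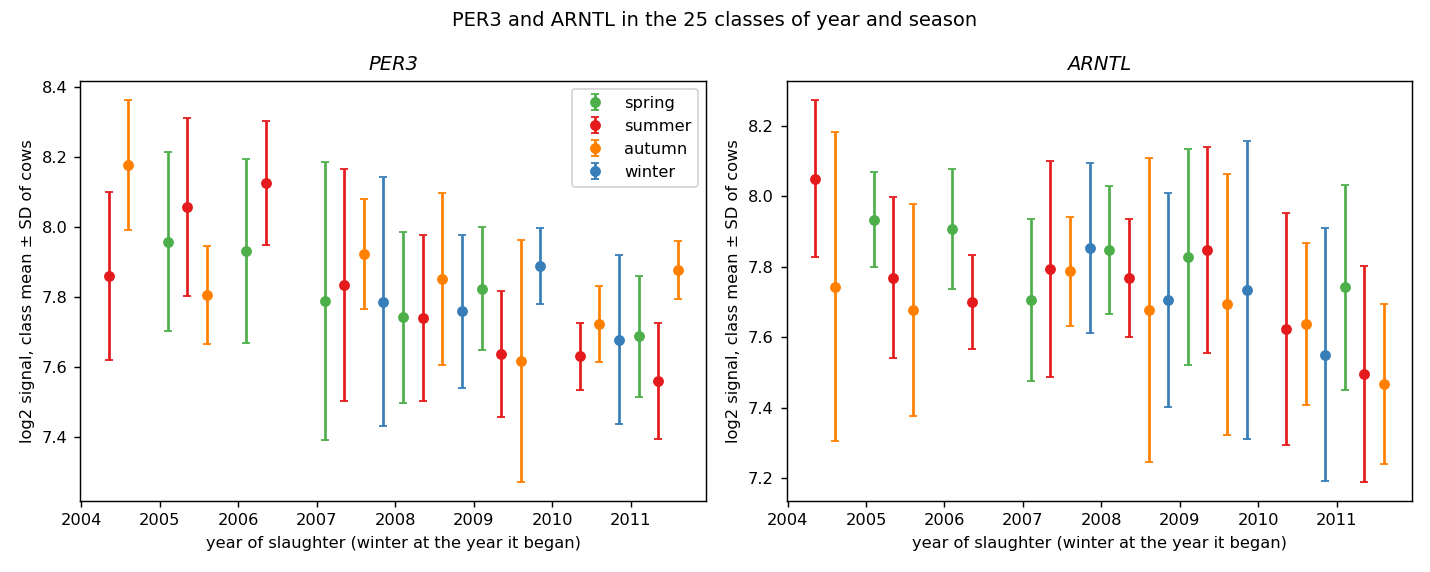
Class means of PER3 and ARNTL (points, log2 signal, bars the SD of the cows) are plotted against the year of slaughter, with the season as colour. PER3 class means lie between 7.56 and 8.18 and those of ARNTL between 7.47 and 8.05, in both genes with the highest class in the first year and the lowest in 2011.

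Between cows of the same class, most pairs of clock genes were related. Each gene was entered in turn as a covariate on all other transcripts in limma, with the 25 classes and age in the fit. Of the 21 pairs among the 7 genes, 13 passed the adjusted threshold, 6 in the same direction and 7 opposed. The background was large and differed by gene. ARNTL was associated with 33.9% of all transcripts, 17.8% positively and 16.1% negatively, CLOCK with 81.6%, 35.4% positively and 46.1% negatively, and PER1 with 41.1%, 17% positively and 24.1% negatively. PER3 was associated with 9.8%, 5.39% positively and 4.41% negatively, and CRY1 with 71%, 33.1% positively and 38% negatively. NR1D2 was associated with 24.3%, 10.8% positively and 13.5% negatively, and DBP with 65%, 34.3% positively and 30.7% negatively. The pairs thus passed for 6 of the 6 other members with ARNTL, 5 with DBP, 4 with CLOCK, 3 each with PER3, CRY1 and NR1D2 and 2 with PER1, which for CLOCK, PER1 and CRY1 is below the share of all transcripts. With the array-wide score as a covariate the 7 backgrounds, in the order ARNTL, CLOCK, PER1, PER3, CRY1, NR1D2 and DBP, became 5.48%, 24.1%, 23.3%, 20.8%, 1.18%, 4.66% and 23.5%, and 7 pairs passed.

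ARNTL and DBP were the most tightly opposed pair. The cow with the lowest ARNTL of all, at 6.64 in autumn 2008, had the highest DBP, at 10.79, and the cow with the lowest DBP, at 9.03 in winter2007/2008, had an ARNTL of 8.29, the highest but 1. Over the 145 cows the partial correlation was r = -0.686 and rho = -0.703 (each p = 1e-05, the smallest that 100000 permutations within classes can give; limma adjusted p = 3.41e-14). By absolute r, DBP ranked 1 of 10985 transcripts against ARNTL. Within seasons r was -0.636 in spring, -0.772 in summer, -0.703 in autumn and -0.633 in winter, and r was negative in 13 of the 13 classes with at least 6 cows. Without the 2 cows with the most extreme ARNTL, r was -0.668, and with the array-wide score as a covariate it was -0.663, still rank 1.

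PER3 and DBP formed the strongest pair in the same direction. The cow with the highest PER3, at 8.38 in the autumn2004 class, had a DBP of 10.33, and the cow with the lowest, at 7.19 in the winter of 2010/2011, a DBP of 9.28. The partial correlation was r = 0.633 and rho = 0.612 (each permutation p = 1e-05, limma adjusted p = 3e-11), and DBP ranked 2 of 10985 transcripts against PER3. It was 0.62 in spring, 0.548 in summer, 0.773 in autumn and 0.611 in winter, and was above 0 in 13 of 13 classes. With the array-wide score as a covariate it was 0.702 and DBP ranked 1.

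**Figure D3:**
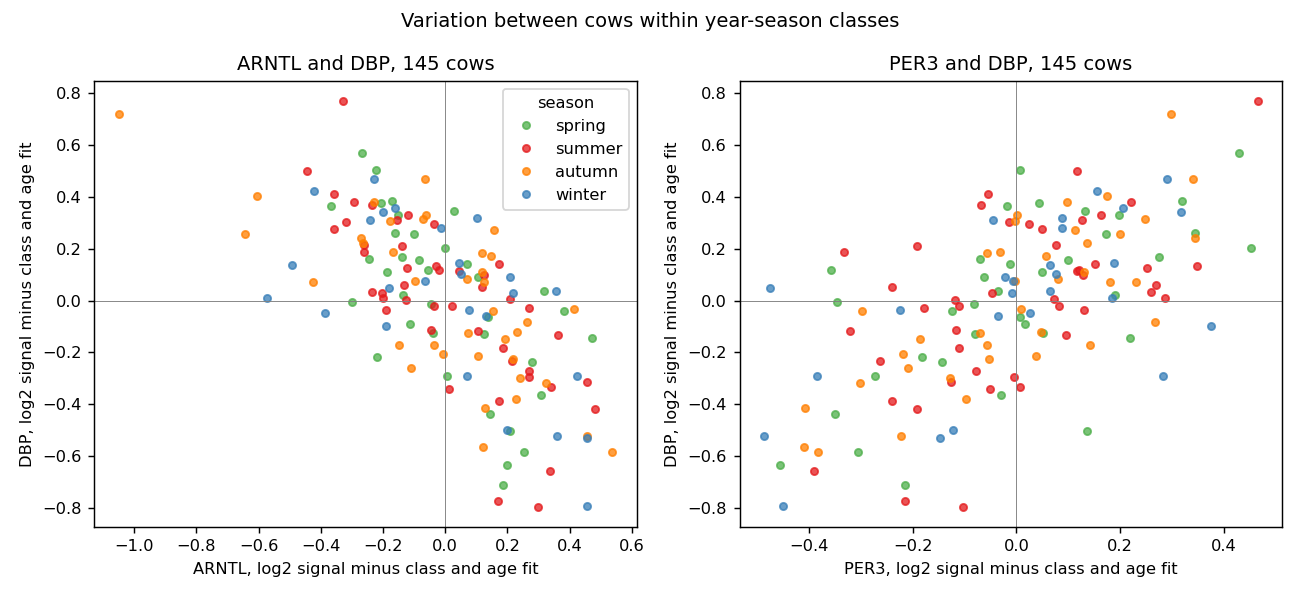
Each point is 1 cow, coloured by season, with the class and age fit subtracted from the log2 signals: ARNTL against DBP on the left and PER3 against DBP on the right. DBP falls along ARNTL (r = -0.686) and rises along PER3 (r = 0.633), and the 4 seasons lie over each other.

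NR1D2 belonged with DBP and PER3. Its correlation was 0.399 with PER3 (rho = 0.42, permutation p = 2e-05, limma adjusted p = 0.000476), 0.385 with DBP (rho = 0.34, permutation p = 4e-05, adjusted p = 0.00137) and -0.36 with ARNTL, the gene it represses (rho = -0.385, permutation p = 6e-05, adjusted p = 0.00194). With the array-wide score as a covariate these became 0.428, 0.613 and -0.454, and DBP ranked 1 of 10985 transcripts against NR1D2. Across the 13 classes of at least 6 cows, the sign was the same in 10 for PER3, in 9 for DBP and in 10 for ARNTL.

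CRY1, a strong repressor of the ARNTL and CLOCK pair, went instead with ARNTL, at r = 0.406 (rho = 0.373, permutation p = 1e-05, limma adjusted p = 0.000605), above 0 in 13 of 13 classes, and at 0.318 with the score as a covariate (adjusted p = 0.02). ARNTL and PER3 were opposed at r = -0.411 (rho = -0.421, permutation p = 1e-05, adjusted p = 0.000568), negative in 12 of 13 classes and -0.409 with the score. The 7 pairs past the threshold in both fits were thus ARNTL with DBP, PER3, NR1D2 and CRY1, and DBP, PER3 and NR1D2 with each other.

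The pairs of CLOCK did not hold once the score entered. Its r of 0.544 with CRY1 and -0.489 with DBP (limma adjusted p = 2.92e-10 and 2.22e-08) became 0.02 and -0.04 (adjusted p = 0.888 and 0.799), and that with PER1 went from -0.3 to -0.119. The r of CRY1 with DBP, -0.491, became -0.271 (adjusted p = 0.0883). ARNTL had only weak relations with its partner CLOCK, at 0.218 (adjusted p = 0.0468), and with PER1, at -0.237 (adjusted p = 0.0307), and both were past the threshold neither with the score nor without the 2 cows with the most extreme ARNTL.

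**Figure D4:**
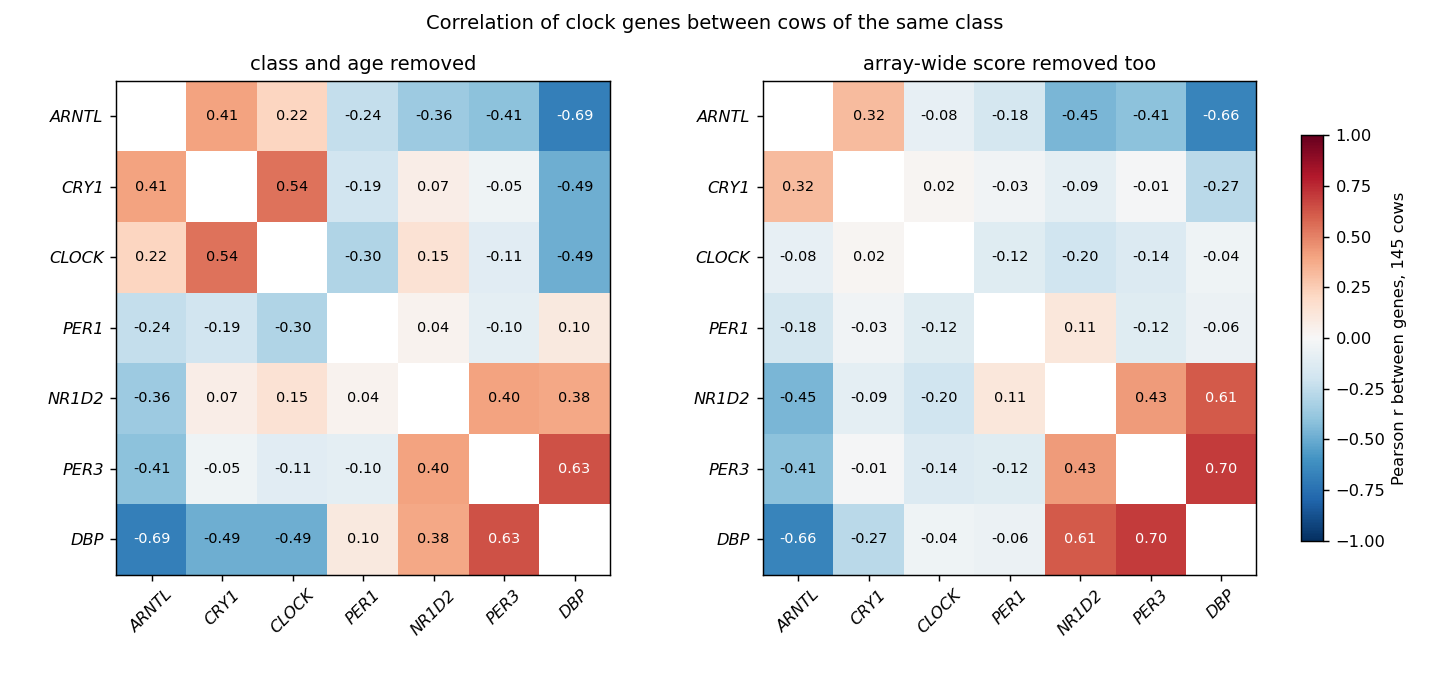
Cells give Pearson r between each pair of the 7 clock genes over 145 cows, in red above 0 and blue below, with classes and age removed (left) and with the array-wide score removed as well (right). DBP, PER3 and NR1D2 are positive with each other and negative with ARNTL in both panels. The CLOCK values with CRY1, DBP, PER1 and ARNTL move towards 0 on the right. Those of CLOCK with PER3 (-0.114 to -0.137) and NR1D2 (0.146 to -0.196) do not.

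PER1 had no called relation with PER3, NR1D2 or DBP. Its r was -0.0973 with PER3, 0.0374 with NR1D2 and 0.096 with DBP, with limma adjusted p-values of 0.4 or more. The cow with the highest PER1, at 9.89 in summer 2009, had a PER3 of 7.62, rank 38 of 145 from the bottom, and a DBP of 10.08. The closest named transcripts to PER1 were SIK1, a salt-inducible kinase induced by cAMP (r = 0.819), EPHA2, an ephrin receptor (0.819), and TPRN (0.818), each with an adjusted p of at most 8.8e-27.

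PER1 was associated with genes of several lists, among them stress and hormone response genes and clock outputs. Of 21 immediate early genes, 13 were associated with it, 12 positively, and of 14 glucocorticoid receptor and target genes 10 were, 9 positively, beside 41.1% of all transcripts. Median r was 0.218 and 0.24 in these lists and -0.0134 over all transcripts. Of 19 genes of ACTH reception and steroid synthesis, 11 were associated with PER1, 8 positively and 3 negatively, with a median r of 0.2. The share was larger among 14 clock output genes, 12 of them or 85.7%, 9 positively and 3 negatively, with a median r of 0.254. Of 7 other clock factors, 5 were associated with PER1, 2 positively and 3 negatively, with a median r of -0.169. With the array-wide score as a covariate PER1 was associated with 23.3% of all transcripts. Of the ACTH and steroid genes 6 then passed, 2 positively and 4 negatively, so that the mostly positive direction did not hold. Immediate early genes kept 12, 11 of them positive, and glucocorticoid genes 9, 8 of them positive. Clock outputs kept 10, 7 of them positive, and other clock factors 5, 3 of them positive. The transcription factors JUND (r = 0.766), CEBPD (0.751) and NR4A3 (0.685), the glucocorticoid-induced TSC22D3 (0.609) and NFIL3, a repressor at the sites that DBP activates (0.64), rose with PER1, each with a limma adjusted p of at most 2.12e-11. JUN ran against it at -0.473 (adjusted p = 1.03e-06), as did the glucocorticoid receptor gene NR3C1 at -0.446 (adjusted p = 5.95e-06) and MC2R, 1 of the 3 negative genes of its list, at -0.397 (adjusted p = 0.000115). These examples were chosen after their values were seen, except MC2R and JUN.

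Of 7 other clock factors, 6 were associated with DBP, 3 positively and 3 negatively, beside 65% of all transcripts, and 4 with PER3, 3 positively and 1 negatively, beside 9.8%. Median r over the 7 was -0.00155 with DBP and 0.0478 with PER3, against 0.0446 and -0.00321 over all transcripts. HLF correlated with PER3 at 0.445, with NR1D2 at 0.369 and with DBP at 0.349, and BHLHE41 with PER3 at 0.439 and with DBP at 0.314 (limma adjusted p of at most 0.0022 in these 5). CIPC, a repressor of CLOCK, had 0.347 with PER3 and 0.203 with DBP (adjusted p = 0.00377 and 0.0421). On the negative side were NFIL3 with PER3 at -0.344 and with DBP at -0.265 (adjusted p = 0.00315 and 0.00586), and RORA and the TIMELESS partner TIPIN with DBP at -0.396 and -0.35 (adjusted p = 2.38e-05 and 0.000224). With the score as a covariate HLF had 0.564 and BHLHE41 0.492 with DBP, and 2 of the 7 were called, both positively, beside 23.5% of all transcripts. Among heat shock and cold-responsive genes, 17 of 22 were associated with DBP, 10 negatively, beside 65% of all transcripts. With the score as a covariate 13 of the 22 were, 10 negatively, beside 23.5%. PER3 was associated with 8 of the 22, 6 negatively, beside 9.8%, and with the score with 13, 11 negatively, beside 20.8%. Without the score, the endoplasmic reticulum chaperone HSPA5 had r = -0.648 with DBP and the cognate chaperone HSPA8 -0.607, whereas cold-inducible CIRBP had 0.414 (adjusted p of at most 1.25e-05 in these 3, which were chosen after their values were seen). SFPQ ran against DBP at -0.659 (adjusted p = 7.85e-14) and with ARNTL at 0.408 (adjusted p = 0.000568).

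The 3 nearest named transcripts to each other gene, apart from the clock genes themselves, were as follows. For DBP they were YPEL3 (r = 0.718), NIFK, a nucleolar protein (-0.716), and CGRRF1 (-0.706). For ARNTL, to which DBP was nearer, they were MCMBP, which binds the MCM complex (0.522), PAM, a peptide-amidating enzyme (0.484), and the kinase PRKCZ (-0.478). For PER3 they were a transcript annotated MIR2460 (0.637), FAM120B (0.595) and ZNF462 (0.577), with DBP in second place at 0.633.

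For NR1D2 they were the cAMP phosphodiesterase PDE8B (0.505), ARHGDIA (-0.482) and the cadherin CDH11 (0.478), and for CRY1 the Mediator subunit MED23 (0.68), CASK (0.67) and GALT (-0.655). CLOCK was nearest to NCKAP1 (0.957), USP34 (0.955) and UBR3 (0.951), all 3 of which also followed the array-wide score at 0.929 to 0.936. The neighbours of CRY1 correlated with the score at 0.823, 0.786 and -0.78, and those of DBP at -0.646, 0.64 and 0.71. Those of ARNTL had 0.725, 0.61 and -0.564, of NR1D2 0.616, -0.708 and 0.355, and of PER3 0.0413, -0.0154 and 0.336. With the score as a covariate the named transcripts nearest to DBP were GOT1 (-0.655), ITPK1 (-0.63) and PRKAG1 (-0.627).

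**Figure D5:**
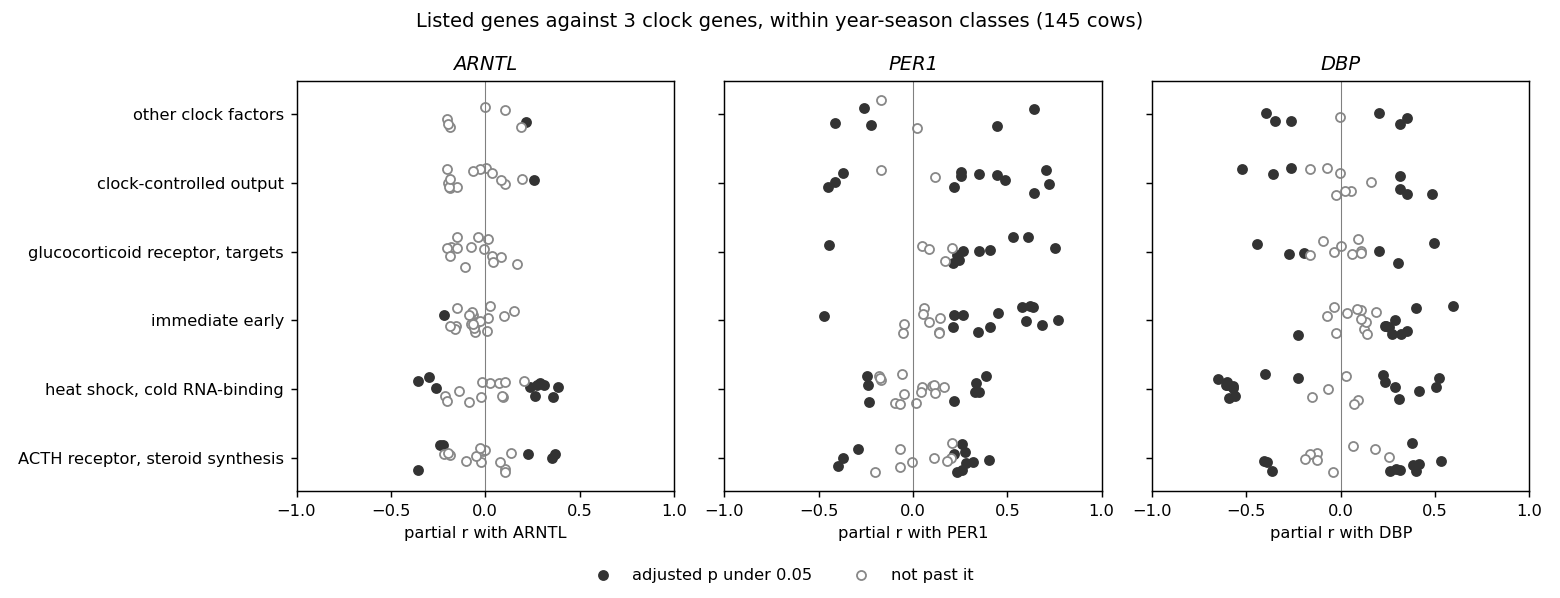
Each point is 1 listed gene, placed by its partial correlation with ARNTL, PER1 or DBP over 145 cows within classes, in rows by gene list, filled where the adjusted p was under 0.05. Immediate early and glucocorticoid genes lie mostly above 0 with PER1 (medians 0.218 and 0.24) and near 0 with ARNTL (medians -0.06 for both).

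The shared NR1D1/THRA transcript followed DBP at r = 0.613 (rho = 0.569, permutation p = 1e-05, limma adjusted p = 5.64e-12) and 0.502 with the score as a covariate. It ran against PER1 at -0.359 (adjusted p = 0.000428), and at -0.556 with the score. It correlated with PER3 at 0.354 (adjusted p = 0.0023). Its r was -0.405 with CRY1 and -0.366 with CLOCK (adjusted p = 1.06e-05 and 4.99e-05), and -0.205 and 0.102 with the score (adjusted p = 0.247 and 0.441). It was associated with 7 of the 7 clock genes beside 57.4% of all transcripts, or with 4 beside 22.9% with the score.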

How the data were processed

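Values were the log2 signals that the authors deposited for 10986 transcripts of a custom Affymetrix bovine gene array. The authors made them in Affymetrix Expression Console with the RMA algorithm and kept transcripts detected above background. Of 147 columns, 2 held no values and were not used. The platform annotation gave 1 symbol to 8863 transcripts, several to 377 and none to 1746, and genes were named only from the first kind. Each cow was placed by its labelled class of year and season.

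Fits used limma 3.58.1 in R 4.3.3. Season contrasts had season, year as a factor and age in units of 100 days as terms, and duplicateCorrelation (statmod 1.5.0) treated the class as a random effect. The slope on year used a linear year term. Class and age tests and associations between transcripts used 25 fixed classes and age. Benjamini-Hochberg adjustment ran over all transcripts, with a threshold of 0.05. Correlations are Pearson r and Spearman rho of residuals, with 100000 two-sided permutations of cows within classes. The code was tested on simulated data. The number of arrays limits precision. Sire and dam terms were not fitted because the pedigree was not analysed here, and p-values may be too small for related cows.

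The rule for named genes took the members, the listed genes with the smallest seasonal p-values, the 3 nearest named transcripts of each member, members excluded, and the 5 with the largest seasonal F. Other genes named as examples of a list (JUND, CEBPD, NR4A3, TSC22D3, NFIL3, NR3C1, HSPA5, HSPA8, CIRBP, CIPC and TIPIN) were chosen after their values were seen, and CLK1, tyrosine hydroxylase and dopamine beta-hydroxylase are named as markers. Members and lists were chosen with earlier results of these data known. Alternatives were the year term, the block, class means as the unit, array centring, the array-wide score, a mean signal above 6, the years from the fourth on, each year left out and no age term.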

Additional observations from a re-analysis of the deposited data

Results flagged for a closer look

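Single cows stood apart from their class, by a gap test at the 95% level, in 8 of 133 combinations of gene and class with 4 to 10 cows. Chance flags about 1 in 20 such groups. CLOCK in autumn 2008 had a highest value of 8.85 with the next cow at 8.03, and PER1 in the Spring2006 class a lowest value of 7.64 with the next at 8.45. PER3 was lowest at 7.51 in Spring2005, below 8.01, and at 7.19 in the winter of 2010/2011, below 7.63. CRY1 had a lowest value of 5.55 in the winter of 2009/2010, below 5.77, and a highest of 6.31 in the winter of 2010/2011, above 5.82. DBP had a highest value of 10.10 in Summer2005, where the next was 10.02, and a lowest of 9.18 in spring 2011, below 9.85.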

How the results depend on the processing

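No clock gene passed for season in any alternative, though CRY1, with a mean of 5.71, was not in the alternative with a mean signal above 6. Leaving out 1 year at a time gave 0 to 1 transcripts for any season difference and 0 to 3 for spring minus autumn, the highest without 2009 in both. The difference of spring minus autumn between years, a test chosen after seeing the data, called 3 transcripts with no age term and 0 otherwise. The array-wide score raised the transcripts called between classes from 1273 to 2539 and the clock genes from 0 to 1, as did dropping age. It changed those associated with ARNTL from 3720 to 602, CLOCK from 8962 to 2651, PER1 from 4514 to 2563, PER3 from 1076 to 2280, CRY1 from 7804 to 130, NR1D2 from 2674 to 512 and DBP from 7145 to 2583, and the pairs from 13 to 7. The cause was not tested.

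Some uncalled values changed sign. Summer minus winter of PER1 was 0.01 and became -0.0529 with linear year, -0.0673 with no year term, -0.0213 with class means, -0.0317 with the score and -0.000673 with no age term, and -0.0392 to 0.0439 without single years. PER3 became 0.0321 with class means and DBP -0.0116 with the score. NR1D1/THRA became -0.0594 with the score, -0.0540 from the fourth year on and -0.0234 with no age term, and -0.0575 to 0.108 without single years. The slope on year of PER1 became -0.0290 from the fourth year on. With the score, CRY1 became 0.000607 and DBP -0.0150, and without single years DBP ran from -0.00863 to 0.00990. The slope on age became -0.0178 in CLOCK, 0.00151 in DBP and 0.0275 in NR1D1/THRA with the score. With the score, r changed sign for ARNTL and CLOCK at -0.0782, CLOCK and NR1D2 at -0.196, CLOCK and NR1D1/THRA at 0.102, PER1 and DBP at -0.0577, and CRY1 and NR1D2 at -0.0946. No paired analysis was possible because each cow belongs to 1 class only and numbers within classes only name cows. No alternative transcript of a member could be tried, each having 1.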
